A study of Mus musculus with 2 samples.

Results

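The Wnt ligands, their Frizzled receptors and the secreted proteins that tune the signal were followed in embryonic mouse neural precursor cells with and without extra HMGN1, a chromatin protein that binds nucleosomes. The genes were chosen by name: every gene whose symbol begins with Wnt, Fzd, Sfrp, Dkk or Rspo and a number, together with Lgr4, Lgr5 and Lgr6. This gave 45 of the 19938 genes on the array, and the RefSeq gene table of mouse assembly GRCm38.p6 holds the same number of symbols of this form. They comprised 19 Wnt ligands, 10 Frizzled receptors, 4 Sfrp, 4 Dkk and 4 R-spondin genes, 3 Lgr receptors, and Fzd10os, a gene named only for lying opposite Fzd10.

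Both groups were precursor cells from the forebrain of Jcl:ICR embryos at E11.5, grown with FGF2 and EGF and infected with a control retrovirus or an HMGN1 retrovirus. Infected cells were replated after 3 days, and total RNA was taken after 1 more day in medium lacking both growth factors. The series has 2 arrays, 1 per virus, so no value has a replicate, no test between the groups was possible and no p-value is given. The sources used here give neither the infected share of the cells nor the number of embryos pooled.

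Wnt proteins are lipid-modified ligands that bind a Frizzled receptor together with the co-receptors Lrp5 and Lrp6, which stabilises beta-catenin and lets it act with TCF and LEF factors on target genes. Some Wnt and Frizzled pairs act instead through planar cell polarity proteins and do not need beta-catenin. Sfrp proteins bind Wnts outside the cell, Dkk1 and its relatives block the co-receptors, and R-spondins act with Lgr receptors to keep Frizzleds at the cell surface. In the embryonic forebrain the pathway is known for its part in dorsal patterning, in precursor division and, at later stages, in the onset of neuron formation.

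Values are the deposited probe set intensities. A difference is always the HMGN1 virus array minus the control virus array on the scale log2(intensity + 16), which understates the change of dim genes. The detection floor was an intensity of 85.9 for the mean of both arrays. It is the level that 95% of the 1035 probe sets for olfactory receptors stay under, and these receptors serve the nose. As a yardstick of scatter, probe sets of the same gene scattered around their mean difference with an SD of 0.0891 (683 genes), which leaves out variation between cultures and arrays. Of all detected genes 40.9% lie past 1 SD of it, so passing it sets no gene apart. Intensities of different genes depend on their probes and are not ranked against each other here.

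On the control virus array Hmgn1 itself read 230, and on the HMGN1 virus array 348 (log2 difference 0.57), the direction its label gives. All 9 precursor markers listed were detected, as were all 6 neuron, all 5 astrocyte and all 6 oligodendrocyte lineage markers analysed. Of the 9 precursor markers 4 were higher and 5 lower, with a median difference of -0.019. Their differences ran from -0.35 for Sox1 (601 and 467) and -0.24 for Prom1 to 0.11 for Pax6. Over the whole array 11325 of 19938 genes were detected. Markers of other cells that make Wnts or carry their receptors were mostly under the floor: 2 of 7 choroid plexus and cortical hem genes were detected, 4 of 8 mesenchyme and meninges genes, 1 of 6 endothelial genes and 1 of 7 microglia and macrophage genes. Their summed intensities were 706 and 695 for the hem list, 720 and 711 for mesenchyme, 392 and 365 for endothelium and 374 and 381 for microglia, control virus first. The part of these cells in the results was not tested. Neuron markers differed by -0.17 to 0.27 and oligodendrocyte lineage markers by -0.16 to 0.28, with 3 higher and 3 lower in each. The 5 astrocyte markers were all higher with the HMGN1 virus, beside 60.1% of all detected genes. They ran from 0.044 for Aldh1l1 to 0.58 for Gfap (406 and 615), the highest difference of all detected genes. Their summed intensity was 2121 and 2568. The part of these neural cell types in the results was not tested either.

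Promoter windows of 300 bases, from 250 before to 50 after the annotated start, were found in RefSeq (GRCm38.p6) for 29 of the 45 genes. Below are those of Wnt7a and Wnt3, the ligands with the highest and lowest difference among detected ligands, of Lgr4, the R-spondin receptor among them, and of Fzd7, the detected Frizzled whose window holds a TCF/LEF word. Each is written 5′ to 3′ along the gene, and capitals mark the TCF/LEF word CTTTGNN, where each N is A or T, or its reverse complement.
Wnt7a, chr6:91411304-91411603, minus strand: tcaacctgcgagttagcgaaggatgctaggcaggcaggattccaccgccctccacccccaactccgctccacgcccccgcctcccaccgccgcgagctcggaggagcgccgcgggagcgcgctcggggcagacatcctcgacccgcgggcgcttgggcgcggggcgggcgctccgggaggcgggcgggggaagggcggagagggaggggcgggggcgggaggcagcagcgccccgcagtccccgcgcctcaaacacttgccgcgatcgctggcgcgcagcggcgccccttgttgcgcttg
Wnt3, chr11:103773925-103774224, plus strand: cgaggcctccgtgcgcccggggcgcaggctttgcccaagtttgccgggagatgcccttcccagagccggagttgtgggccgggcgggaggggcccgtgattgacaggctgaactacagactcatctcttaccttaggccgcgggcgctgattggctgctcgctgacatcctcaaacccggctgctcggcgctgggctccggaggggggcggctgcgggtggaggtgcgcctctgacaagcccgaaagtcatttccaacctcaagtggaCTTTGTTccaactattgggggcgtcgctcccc
Lgr4, chr2:109917397-109917696, plus strand: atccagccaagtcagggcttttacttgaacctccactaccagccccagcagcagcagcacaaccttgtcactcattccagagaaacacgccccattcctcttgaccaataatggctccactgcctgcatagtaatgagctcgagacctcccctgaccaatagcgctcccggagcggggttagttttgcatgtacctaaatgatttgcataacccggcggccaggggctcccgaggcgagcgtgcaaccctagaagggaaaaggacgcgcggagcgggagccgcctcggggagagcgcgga
Fzd7, chr1:59481897-59482196, plus strand: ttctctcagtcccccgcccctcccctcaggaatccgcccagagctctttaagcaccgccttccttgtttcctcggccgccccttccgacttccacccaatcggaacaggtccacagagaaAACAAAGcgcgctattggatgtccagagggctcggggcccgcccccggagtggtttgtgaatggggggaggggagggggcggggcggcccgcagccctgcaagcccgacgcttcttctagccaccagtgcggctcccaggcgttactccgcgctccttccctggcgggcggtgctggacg
The word in Wnt3 is CTTTGTT, 18 bases past the annotated start, and that in Fzd7 is AACAAAG, the same word on the other strand, 130 bases before the start. No such word stands in the Wnt7a or Lgr4 window. The word was in 5 of 32 windows of these genes, or 15.6%, and in 16.9% of all 32851 windows, a like share of windows. Base content was not allowed for in this comparison. The median share of G and C was 68.3% in the windows of these genes and 52.7% over all windows. The windows of these genes are also rich in CG pairs, with a median of 26.5 per window against 7 over all windows. The Wnt7a window has 42 CG pairs, Wnt3 and Fzd7 have 24 each, and Lgr4 has 18.

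Of the 45 genes 22 were detected, beside 11325 of all 19938 genes. Of those 22, 0 reached a log2 difference of 0.32 in either direction, the size set for counting. Over all 11325 detected genes, 0.494% were higher and 0.521% lower by that size, so a count of 0 among 22 is what that background gives. The 22 differences ran from -0.21 to 0.18, with a median of 0.013 beside 0.027 for all detected genes. At any size, 12 were higher and 10 lower, beside 60.1% higher and 38.4% lower over all detected genes. RNA came from whole cultures, so fewer cells of a type and less RNA per cell cannot be told apart.

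**Figure D1:**
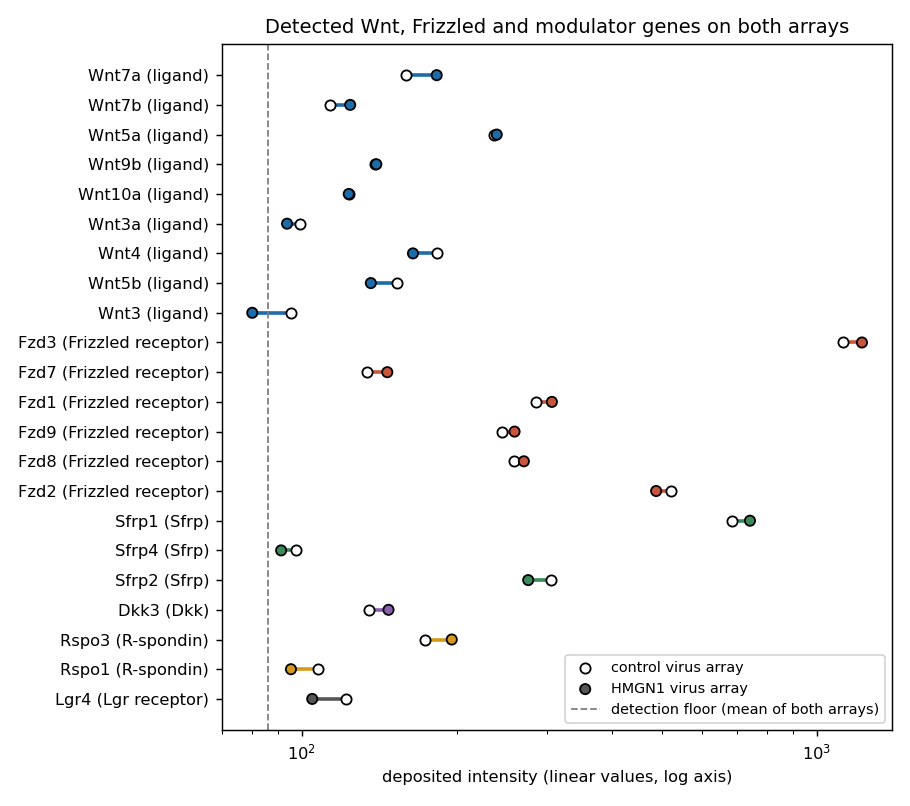
Deposited intensities (log axis) of the 22 detected genes, grouped by role, with an open circle for the control virus array, a filled circle for the HMGN1 virus array and a dashed line at the detection floor of 85.9. Each pair lies close together, and the pairs run in both directions within the ligands and the modulators.

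The ligands differed among themselves. Of 19 Wnt genes 9 were detected, 4 of them higher and 5 lower with the HMGN1 virus, and their median difference was -0.0041. This split depended on the processing. Centring differences on the median of detected genes gave 2 higher and 7 lower, as did removing the trend with intensity or gene span. Quantile normalization gave 5 higher and 4 lower. With the floor at the 99th percentile of olfactory receptors, 3 were higher and 3 lower.

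Wnt7a, a ligand of forebrain precursors that also signals to brain blood vessels, read 160 on the control virus array and 183 on the HMGN1 virus array, a difference of 0.18 or 1.13-fold. Its close relative Wnt7b read 114 and 124, a difference of 0.11. Both were thus higher on the HMGN1 virus array by more than the scatter between probe sets, and 93.4% and 81.1% of detected genes had lower differences than Wnt7a and Wnt7b.

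Wnt3, a ligand of the beta-catenin branch, read 95.3 and 80.2, a difference of -0.21, and only 2.36% of detected genes had lower ones. It lay at the edge of detection, with a mean of 87.5 just above the floor, and its reading with the HMGN1 virus was below it. Wnt3a, the ligand of the cortical hem that the early hippocampus needs, read 99.2 and 93.7, a difference of -0.070. The related ligands Wnt3 and Wnt3a were thus both lower, Wnt3 by more than 2 SD of the scatter and Wnt3a within 1 SD.

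Wnt4, best known from kidney and gonad development, read 183 and 164, a difference of -0.14. A second, dimmer probe set of Wnt4 read 73.5 and 71.5, a difference of -0.033, so the second probe set had the same sign and a smaller size. Wnt5b read 153 and 136, a difference of -0.15, whereas its relative Wnt5a, a ligand known mainly for signalling without beta-catenin, read 236 and 239, a difference of 0.019. Wnt5b thus read lower and Wnt5a close to level, a contrast that has no replicate check.

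Wnt9b read 139 and 140, a difference of 0.0064. Wnt10a read 124 and 123, a difference of -0.0041. Both were as good as level on these arrays, and with Wnt5a they are the detected ligands whose sign turned under some way of processing.

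The other 10 ligands were under the floor, among them Wnt8b and Wnt2b, which mark the cortical hem in the embryo, and Wnt1, the ligand of the midbrain boundary. Of these 10, 9 were lower, from -0.19 for Wnt2 to -0.0013 for Wnt2b, and Wnt10b was at 0.019. Among all 8613 genes under the floor 55.2% were lower, with a median of -0.022, beside a median of -0.085 for these 10. Olfactory receptor genes, read as noise, had a median of -0.050. What lies behind the lower readings was not tested. Wnt8a, at 85.9 and 78.2, and Wnt2b, at 81.0 and 80.9, lay just outside the floor.

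**Figure D2:**
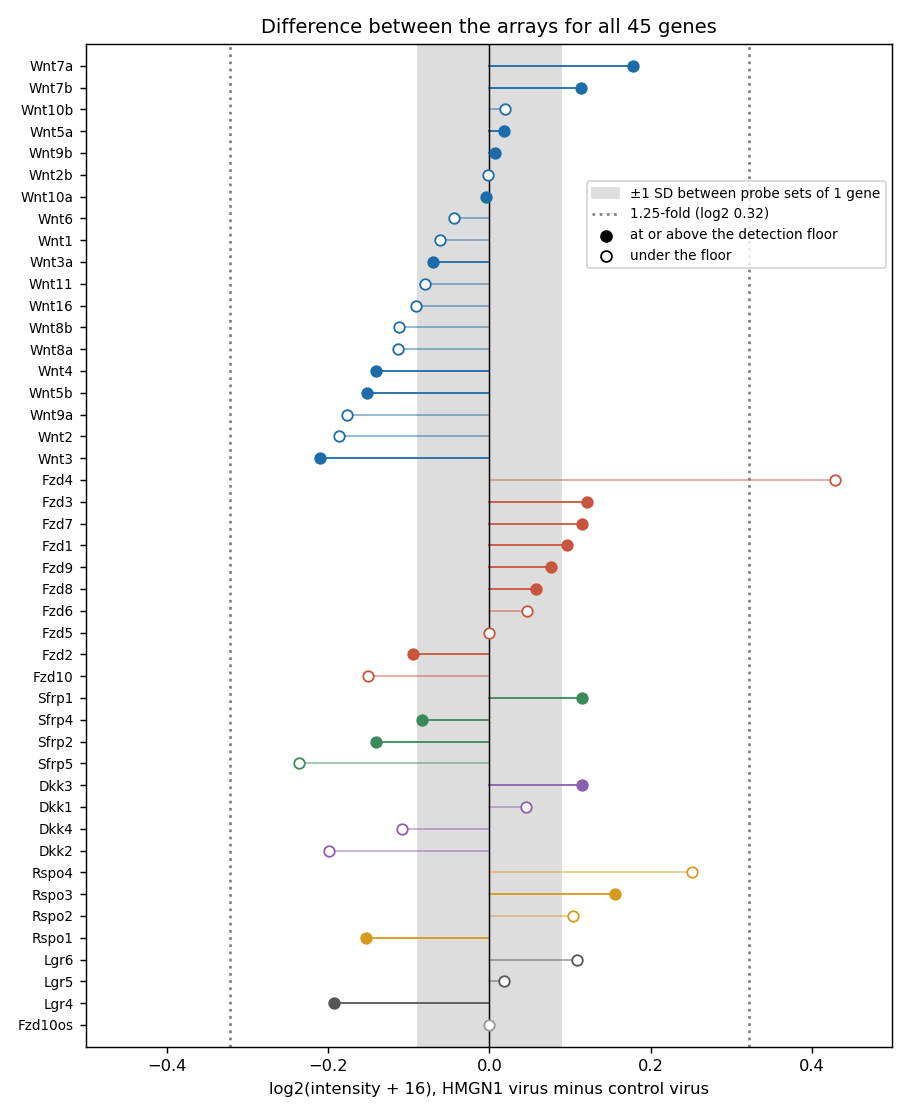
Difference between the arrays for all 45 genes on the log2(intensity + 16) scale, HMGN1 virus minus control virus, with filled points for detected genes, open points for those under the floor, a grey band of 1 SD (0.0891) between probe sets of 1 gene either side of 0 and dotted lines at a log2 difference of 0.32. Fzd4, under the floor, is the single point past a dotted line.

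The detected Frizzled receptors differed little. Of 10 genes 6 were detected, 5 of them higher and 1 lower, with a median of 0.086, beside 60.1% higher over all detected genes and 65.9% over those at 200 or more, where 5 of these 6 lie. The split held when differences were centred, quantile normalized or freed of the trend with intensity or with gene span. The sizes were small, from -0.095 to 0.12, and 4 of the 6 were past 1 SD of the scatter, beside 40.9% of all detected genes.

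Fzd3, the receptor that forebrain axon tracts need, read 1124 and 1224, a difference of 0.12. Fzd7 read 134 and 147, a difference of 0.12, and Fzd1 read 285 and 306, a difference of 0.096. These 3 receptors were higher by 1.07-fold to 1.09-fold.

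Fzd9 read 245 and 259, a difference of 0.076. Fzd8, a receptor of the anterior forebrain from early stages, read 259 and 270, a difference of 0.057. Both stayed inside the scatter. Fzd2, a close relative of Fzd1 and Fzd7, read 522 and 488, a difference of -0.095, and was the one detected Frizzled with a lower reading.

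Of the 4 Frizzleds under the floor, Fzd4 stood apart. Fzd4, the receptor for Norrin in retinal and brain vessels, read 44.6 and 65.6, a difference of 0.43, or 1.47-fold without the offset. Of the genes under the floor 0.673% were higher by 0.32 or more, and 2 of 1027 olfactory receptor genes had a difference as large. Both readings were below the 85.9 that counted as detection, so a level of Fzd4 RNA cannot be read from them. Ndp, the gene of Norrin, was detected and read 177 and 168, a difference of -0.070. Of the endothelial markers, on whose cells Fzd4 is known to act, Pecam1, Cdh5, Kdr, Cldn5 and Tek were all under the floor, and Egfl7 was above it at 110 and 111.

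Fzd5, Fzd8's closest relative, had the identical value of 82.6 in both columns, just under the floor, and Fzd10os had 65.0 in both. In all, 749 probe sets (2.59%) carry the same value on both arrays in this way, and the sources used here do not say how that arose. Fzd6 differed by 0.047 and Fzd10 by -0.15, both under the floor.

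The secreted modulators were divided. Of 12 Sfrp, Dkk and R-spondin genes 6 were detected, 3 of them higher and 3 lower, with a median of 0.016, and each scaling run kept this 3 to 3 split. With the floor at the 99th percentile of olfactory receptors, which drops Rspo1 and Sfrp4, it became 3 higher and 1 lower with a median of 0.11. Within the Sfrp and R-spondin families the detected members went opposite ways.

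Sfrp1, a Wnt-binding protein that radial precursors of the cortex secrete, read 684 and 742, a difference of 0.11. Sfrp2, its close relative, read 305 and 275, a difference of -0.14. Sfrp4 read 97.6 and 91.2, a difference of -0.083. Sfrp1 was thus higher and Sfrp2 lower by more than the scatter, and Sfrp4 stayed within it. Sfrp5 was under the floor at 68.3 and 55.6.

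Rspo3, an R-spondin made at the hem, read 174 and 196, a difference of 0.16. Rspo1 read 108 and 95.3, a difference of -0.15. These differences point in opposite directions and are of like size. Rspo2 and Rspo4 were under the floor, with differences of 0.10 and 0.25.

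Lgr4, the R-spondin receptor detected here, read 122 and 105, a difference of -0.19, and 3.07% of detected genes had lower ones. Lgr5 and Lgr6, its relatives in stem cells of epithelia, were under the floor at 55.8 and 56.7 and at 69.5 and 76.2. With the floor at the 99th percentile Lgr4 was no longer detected. Lgr4 and Wnt3 were the 2 of the 22 detected genes past 2 SD of the scatter, 0.178, beside 10.4% of all detected genes, which is near that background. Both were dim, and olfactory receptor genes had a wider SD of 0.156 between the arrays.

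Dkk3, which unlike its relatives is not a typical blocker of the Lrp co-receptors, read 135 and 147, a difference of 0.11. The co-receptor blockers Dkk1, Dkk2 and Dkk4 were all under the floor, with differences from -0.20 to 0.045.

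At a smaller size of 1.1-fold, 2 of the 22 detected genes were higher, namely Wnt7a and Rspo3, and 6 were lower, namely Wnt3, Wnt4, Wnt5b, Lgr4, Rspo1 and Sfrp2. Over all detected genes 13.1% were higher and 7.20% lower at this size. All of these but Sfrp2 had a mean intensity under 200, and among the 4671 detected genes of that signal 11.3% were 1.1-fold lower, beside 5 of 14 here. The 8 brighter genes held 6 that were higher and 2 that were lower, the latter being Fzd2 and Sfrp2, near the 65.9% higher among all 6654 detected genes of that signal.

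**Figure D3:**
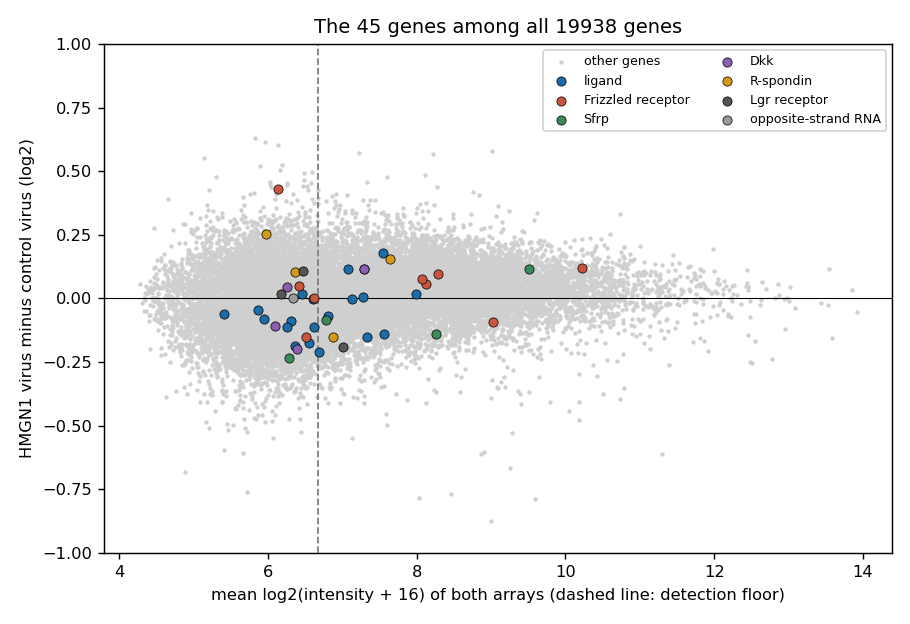
Difference (vertical, log2, HMGN1 virus minus control virus) against mean log2(intensity + 16) of both arrays for all 19938 genes in grey, with the 45 genes coloured by role and the detection floor dashed. Fzd4, left of the floor with a difference of 0.43, is the highest coloured point, and genes under the floor reach 0.63. The other coloured points lie inside the grey cloud.

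The rest of the pathway was described from 6 lists of genes by role, 76 genes in all, of which 75 were analysed here and 60 detected. Of these 60, 38 (63.3%) were higher and 20 lower, beside 60.1% and 38.4% of all detected genes, against which the counts of each list below are to be read. Their median was 0.033, close to the 0.027 of all detected genes, and 0 reached 0.32 in either direction.

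Proteins that make, carry or receive Wnts had 14 of 17 genes detected, 8 higher and 6 lower, with a median of 0.042, and 6 higher and 8 lower once the gene span trend was removed. Ror1, a receptor kinase for Wnt5a, had the lowest difference of the 60 genes, at 105 and 83.0 (-0.29). Ror1 was dim, and its reading with the HMGN1 virus was below the floor of 85.9. Its relative Ror2 differed by -0.040. Kremen1, a Dkk receptor, differed by -0.13. Porcn, the enzyme that attaches the lipid to Wnts, read 383 and 349 (-0.13), and Wls, the carrier that takes Wnts to the cell surface, read 394 and 365 (-0.11). Both genes of Wnt release read lower on the HMGN1 virus array. Znrf3, the ubiquitin ligase that removes Frizzleds and is held back by R-spondins, read 296 and 324 (0.12), and the glypican Gpc3 differed by 0.092. The co-receptors Lrp5 and Lrp6 differed by 0.080 and 0.063.

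Other secreted or surface inhibitors and ligands had 5 of 10 genes detected, within 1 SD of the scatter throughout. They ran from Ndp (-0.070) and Sost (-0.033) to Trabd2b, with the same value in both columns, and the axon guidance protein Draxin (0.039).

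All 16 cytoplasmic components were detected, 11 higher and 5 lower, with a median of 0.062. Tnks, which marks Axin for breakdown, differed by 0.15, and Apc, the scaffold of the destruction complex, by 0.15. Ctnnb1, the gene of beta-catenin, read 2784 and 3069, a difference of 0.14. Apc2 (-0.11) and Dvl3 (-0.093) were at the low end. With the intensity trend removed the list stood at 9 higher and 7 lower.

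Nuclear components had 12 of 13 genes detected, 8 higher and 4 lower, with a median of 0.041, and 6 of each once centred. The TCF factors Tcf7l2 (0.13) and Tcf7l1 (0.12) were highest, and the coactivators Bcl9l (-0.15) and Pygo2 (-0.13) lowest. Lef1, the TCF relative of the hippocampal primordium, was under the floor at 80.4 and 80.8.

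Planar polarity genes had 8 of 11 detected, 7 higher and 1 lower, with a median of 0.060, but 4 of each once the intensity or the gene span trend was removed. Vangl1 (0.16) and Daam2 (0.11) were highest, Scrib (0.0045) was near 0, and Vangl2, the Vangl gene best known from neural tube closure, read 745 and 675 (-0.14).

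Known target genes of the beta-catenin branch gave no common direction. Of 12 analysed 6 were detected, 4 higher and 1 lower, with a median of 0.026, and 3 of each once centred. Axin2, the feedback inhibitor widely used as a readout of the pathway, had the identical value of 168 in both columns. Nkd1, another feedback inhibitor, differed by -0.099 and the cell cycle gene Ccnd1 by 0.023. Mycn (174 and 198, 0.17) and Znrf3 (0.12) were highest. The targets Sp5, Lef1, Notum, Nkd2, Rnf43 and Neurog1 were under the floor.

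**Figure D4:**
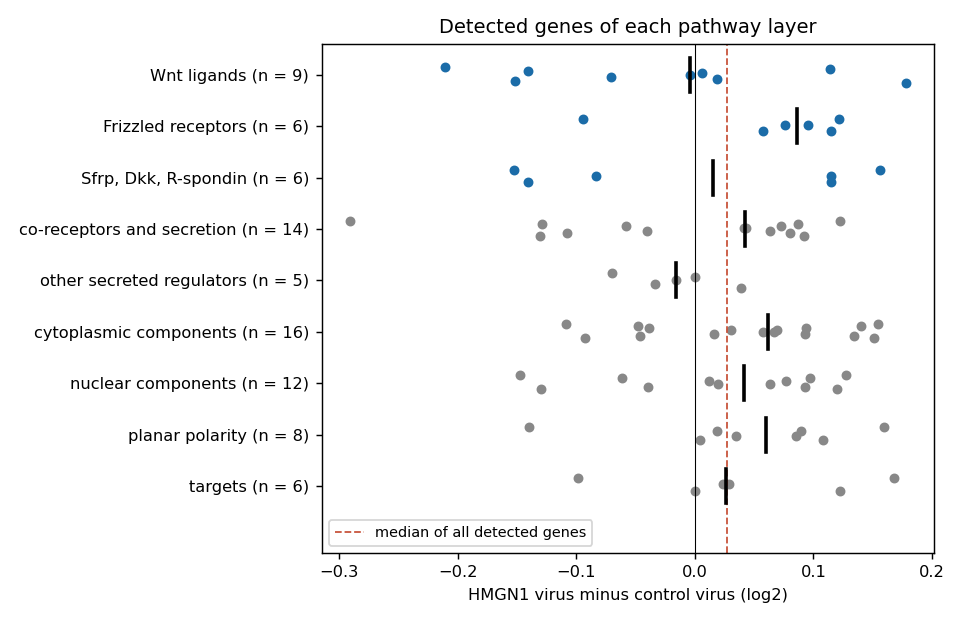
Differences (log2, HMGN1 virus minus control virus) of the detected genes in each layer of the pathway, with the ligands, receptors and modulators in blue, the other layers in grey, a black bar at each median and a dashed line at the median of all detected genes (0.027). Lgr4 (-0.19), the only detected Lgr receptor, is not drawn. The layers drawn overlap, and their medians run from -0.016 for the other secreted regulators to 0.086 for the Frizzled receptors.

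**Figure D5:**
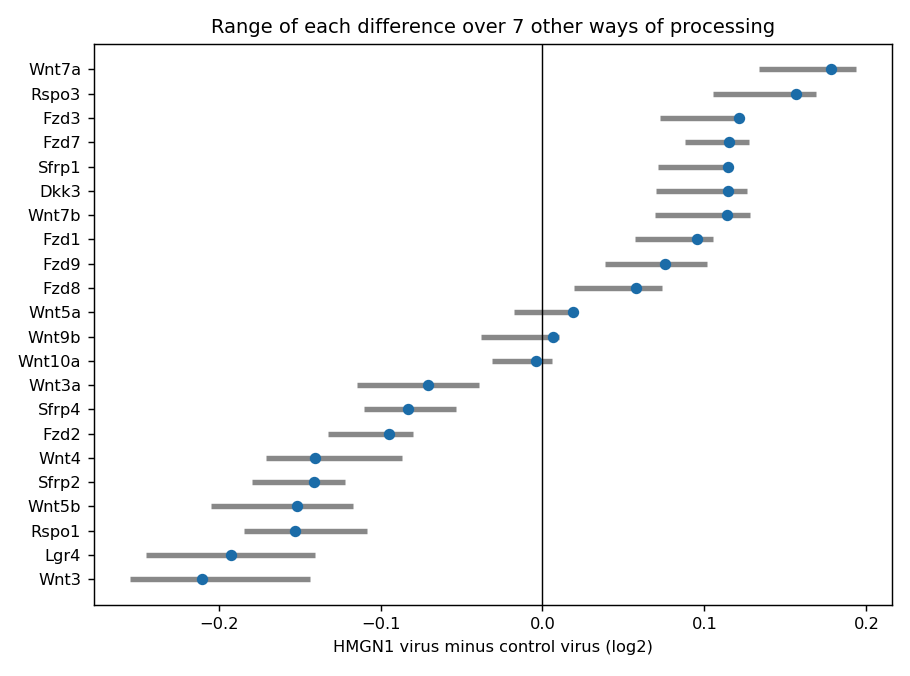
Difference of each of the 22 detected genes as reported (point) and its range (bar) over the reported value and 7 other ways of processing, on the log2 scale. The bars of Wnt5a, Wnt9b and Wnt10a cross 0 and the other 19 do not. A change of offset cannot turn a sign, and the mean of probe sets alters only Wnt4.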

How the data were processed

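Per the labels' protocols, total RNA from 1 control virus and 1 HMGN1 virus culture was labelled with biotin (GeneChip whole-transcript kit) for 1-colour arrays. The deposited table holds the authors' probe set intensity values for 28944 probe sets on a linear scale, with medians of 101 and 98.8. Background correction, normalization and summarisation are not given in the sources used here, and no further scaling was applied. Probe sets were named from the platform's GEO annotation. Only the 21789 probe sets with 1 symbol were used, and each gene took its brightest probe set by mean log2(intensity + 16). Of the 45 genes, 44 had 1 probe set and Wnt4 had 2, and 0 probe sets of several genes named one of them.

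With 1 array per group, genes were counted by size (a log2 difference of 0.32) and lists described by counts and medians, in Python 3.11.15 with pandas 2.3.3 and statsmodels 0.14.6. The code was tested on simulated data with less noise than the scatter here and planted changes above the counting size. That run checks the code and not the counts reported here. Alternatives were offsets of 1 and 64, centring, quantile normalization, loess removal (span 0.3) of trends with intensity or gene span, the mean of probe sets, other floors and sizes of 1.1-fold and 1.5-fold. The genes and lists were chosen with earlier results of these data known. Every detected gene of the 45 was named. Of each pathway list the 2 highest and 2 lowest were named, and any other list gene was named for its role, after its value was seen. A few listed genes are not analysed here. The number of arrays limits the precision.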

Additional observations from a re-analysis of the deposited data

How the results depend on the processing

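No paired analysis was possible because there is 1 array per virus, and for the same reason no replicate could be left out. The counts of 0 genes higher and 0 lower by a log2 difference of 0.32 among the detected 22 stayed at 0 under 9 and 10 of the 11 alternatives. Several of these could hardly give another count. The 1.5-fold size is stricter, the offset of 64 shrinks differences, and the mean of probe sets alters only Wnt4. The floor at the 99th percentile of olfactory receptors keeps 16 of the same 22 genes with unchanged differences. Without a filter on dim probe sets 45 genes entered and 1, Fzd4, was higher by that size, with 20 higher and 23 lower at any size. At 1.1-fold the counts were 2 higher and 6 lower, by construction. When the floor was raised to the 99th percentile of olfactory receptors, 16 genes were detected, of which 11 were higher and 5 lower, since the dimmest genes leave the count. The median of 0.013 ran from -0.016 (gene span trend removed) to 0.067 (99th percentile floor), and centring turned the 12 higher and 10 lower into 10 and 12. Over all detected genes centring turned 6803 higher and 4354 lower into 5662 of each. Of the 22 detected genes 19 kept their sign under all 7 alternatives that can alter a single difference. The exceptions were Wnt5a and Wnt9b (centring, intensity and span trends) and Wnt10a (quantile normalization). The offsets among these 7 cannot turn a sign, and the mean of probe sets alters only Wnt4. A sign could thus turn almost only under the scalings. Fzd4 ran from 0.25 (offset 64) to 0.55 (offset 1). Low signal limits Wnt3, Sfrp4, Wnt3a, Rspo1, Lgr4 and Wnt7b, the 6 genes that lost detection at the higher floor of 119.5; Lgr4 and Wnt3 are those past 2 SD of the scatter.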

Other observations

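Several Wnt genes lie side by side, and 4 pairs of direct neighbours among protein-coding genes were found in the RefSeq table of GRCm38.p6. Wnt3a and Wnt9a, on chromosome 11, differed by -0.070 and -0.18. Wnt9b and Wnt3, elsewhere on chromosome 11, differed by 0.0064 and -0.21. Wnt6 and Wnt10a on chromosome 1 differed by -0.044 and -0.0041, and Wnt10b and Wnt1 on chromosome 15 by 0.019 and -0.062. Both genes were detected only in the pair of Wnt9b and Wnt3, whose differences were unlike: Wnt9b was level and Wnt3 had the lowest difference of the detected ligands.

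The length of a gene's annotated span, introns included, went with the difference across all detected genes. Spearman's rho was 0.24 over 11295 detected genes. It was 0.037 over the 22 detected genes described here, too few to show that these families differ from all genes. The points share both arrays and are not independent. Of the 4 longest detected genes, Wnt5b (112 kb) and Lgr4 (96.6 kb) differed by -0.15 and -0.19, and Rspo3 (82.8 kb) and Fzd3 (70.0 kb) by 0.16 and 0.12. Of the 4 shortest, Fzd9 (2.11 kb), Fzd8 (3.35 kb) and Fzd1 (4.38 kb) differed by 0.076, 0.057 and 0.096, and Fzd2 (3.63 kb) by -0.095.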
